A study of Mus musculus with 4 samples.

Results

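The 10 genes described here write, read and erase N6-methyladenosine (m6A), a methyl mark on adenosines inside messenger RNA. They were taken by name, not by a measured value, though earlier results of these data were known when they were chosen. All 10 had a row in the table of 53715 genes and passed the filter on low counts. Poly(A) RNA was measured by RNA sequencing of pre-amplified cDNA from whole mouse embryos at the 2-cell stage. In the knockdown group (2 libraries) zygotes had received an injection of siRNA of SPENH0335, and in the control group (2 libraries) an injection of siNC, in both cases at 20 μM. Both groups were of strain C57BL/DBA2, with zygotes taken from the oviduct and kept in KSOM medium. The series is about enhancer-derived RNA, and no row of the table is named SPENH0335, so how far it was depleted was not measured here. The labels give neither the number of embryos per library nor their collections, so p-values reflect library-to-library spread alone, and that spread may be technical.

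The m6A mark is set in the nucleus by a complex built around METTL3, the catalytic subunit, METTL14, which binds RNA and holds METTL3 in its active form, and WTAP, which brings the pair to nuclear speckles. Proteins with a YTH domain bind the marked adenosine: YTHDC1 in the nucleus, where it acts in splicing and export, YTHDF1, YTHDF2 and YTHDF3 in the cytoplasm, where YTHDF2 recruits the CCR4-NOT deadenylase to speed up decay, and YTHDC2, a helicase best known for its role in meiosis. ALKBH5 and FTO are dioxygenases that remove the methyl group. In mouse, maternal YTHDF2 is required for the proper clearing of oocyte messages and for early embryonic development.

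The 3 cytoplasmic readers are paralogs, so it was asked whether their reads could be confused. Their coding sequences were aligned, and the 90 bases most alike in all 3 genes are shown to let a reader see how far apart they are even there. Capitals mark bases identical in all 3 genes, and lower case marks positions where at least 1 differs. Sequences are from GENCODE M21 on GRCm38, 5′ to 3′ on the gene's own strand, and each lies within a single coding exon: Ythdf1 at chr2:180911123-180911212 (minus strand), Ythdf2 at chr4:132204568-132204657 (minus strand) and Ythdf3 at chr3:16204899-16204988 (plus strand).
Ythdf1: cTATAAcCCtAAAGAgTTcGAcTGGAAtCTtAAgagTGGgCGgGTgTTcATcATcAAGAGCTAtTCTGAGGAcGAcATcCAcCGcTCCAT
Ythdf2: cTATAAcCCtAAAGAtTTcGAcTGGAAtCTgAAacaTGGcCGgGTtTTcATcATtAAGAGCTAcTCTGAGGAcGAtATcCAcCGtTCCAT
Ythdf3: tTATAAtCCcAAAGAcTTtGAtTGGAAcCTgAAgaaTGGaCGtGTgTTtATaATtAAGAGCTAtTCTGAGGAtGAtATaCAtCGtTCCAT
Even in this stretch 23 of 90 positions differed, and 67 were shared by all 3 genes. Over the aligned coding sequence, identity was 67.8% between Ythdf1 and Ythdf2, 69.4% between Ythdf1 and Ythdf3 and 69.4% between Ythdf2 and Ythdf3. The longest exact run shared by Ythdf1 and Ythdf2 was 22 bases, and that of either with Ythdf3 was 17 bases. No window of 50 bases of Ythdf1 or Ythdf3 was found in an annotated transcript of another gene on either strand.

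Sequence shared with other genes was small for most of the 10 genes. Of the 50-base windows of Ythdf2, 7.49% also occurred elsewhere, most of them in the processed pseudogenes Gm6823 and Gm8401, which had at most 6 and 16 counts in a library. Wtap shared 6.36% of its windows, mostly with the processed pseudogene Gm14292, at 612 and 513 counts in knockdown and 549 and 533 in control, against at least 74090 counts of Wtap in every library. Mettl3 shared 18.4% of its windows, most of them with Tox4, a gene on the opposite strand whose exons overlap 933 bases of Mettl3 exon. Ythdc1 shared 5.87%, mainly with the overlapping long noncoding RNA gene Gm43055, which had 0 counts in every library. Fto shared 2.38%, Ythdc2 0.804%, Alkbh5 0.202% and Mettl14 0%. No source used here gives the strand setting of the counting, so Mettl3 and Tox4 reads from the overlap cannot be told apart.

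Total counts ran from 78865491 to 99011109 a library, with 29472 to 29876 genes detected, and the 10 genes took 0.213 to 0.231% of a library's counts. The knockdown libraries stood further from each other than from the control libraries: over 8185 genes averaging 10 CPM or more (CPM being counts scaled to library size), the knockdown libraries had a median absolute log2 difference of 0.261, the control libraries 0.128, and pairs from different groups 0.158 to 0.227. Defining oocyte transcripts (Zp3, Gdf9, Bmp15, Oosp1, Nlrp14 and Btg4) and 2-cell transcripts (Zscan4c, Zscan4d, Zscan4f, Zfp352, Usp17lc and Obox1) were present in every library. The oocyte list summed to between 6009 and 6221 CPM in knockdown and between 6924 and 7159 CPM in control, with Btg4 the highest gene of the list per kilobase. The 2-cell list summed to between 1855 and 2058 CPM in knockdown and between 1637 and 1666 CPM in control, with Obox1 highest. These sums differed between the groups in every library. In knockdown over control all 6 oocyte genes had a log2 fold change below 0 (median -0.19). All 6 2-cell genes had one above 0 (median 0.28). By edgeR 3 genes of each list had an unadjusted p under 0.05, against 3.85% of all tested genes. The smallest edgeR adjusted p in either list was 0.9999. The part of these lists in the results below was not tested. Markers of cumulus and granulosa cells (8 genes) summed to 44.3 to 62.9 CPM in knockdown and 49.0 to 56.0 CPM in control, mostly Cyp19a1. In this list Has2 had 0.932 and 0.458 CPM in knockdown and 2.65 and 2.58 CPM in control (log2 fold change -1.91, edgeR unadjusted p = 0.0173, adjusted p = 0.9999). Foxl2 had 0.228 and 0.0213 CPM in knockdown and 0.891 and 1.10 CPM in control (log2 fold change -2.98, edgeR unadjusted p = 0.0594, adjusted p = 0.9999). Other genes went the other way: of the 7 tested genes of the list, 4 lay above 0 and 3 below. Fshr had 0.798 and 1.24 CPM in knockdown and 0.609 and 0.361 CPM in control (log2 fold change 1.06, edgeR unadjusted p = 0.203, adjusted p = 0.9999). The part of these genes in the results below was not tested. Sperm markers (8 genes) summed to 9.71 to 17.7 CPM in knockdown and 14.1 to 15.9 CPM in control. Ldhc had the highest CPM of the list in both control libraries and Pgk2 in both knockdown libraries. Pgk2 had 8.16 and 3.17 CPM in knockdown and 1.66 and 2.89 CPM in control, and Ldhc 5.40 and 2.68 against 7.57 and 5.63 CPM. Tnp2 had 0 counts in both knockdown libraries and 28 and 4 counts in control, and did not pass the filter on low counts. Blood and oviduct markers (6 genes) summed to 14.4 to 31.4 CPM in knockdown and 33.9 to 49.6 CPM in control, with Hba-a1 highest and Hbb-bs at 0 counts in all 4 libraries. These sums were lower in both knockdown libraries, with 4 of the 5 tested genes below 0 and 1 above. The gene above 0 was Ovgp1, with 2.14 and 1.83 CPM in knockdown and 1.32 and 0.548 CPM in control (log2 fold change 1.09, edgeR unadjusted p = 0.133, adjusted p = 0.9999). Krt7 had the smallest p of the list (log2 fold change -2.03, edgeR unadjusted p = 0.0478, adjusted p = 0.9999). Lyz2 had 19.4 CPM in control replicate 2, against 4.18 CPM in control replicate 1 and 4.19 and 1.44 CPM in knockdown. The part of the blood and oviduct markers in the results below was not tested.

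The messages of the pathway differed widely in level, with Wtap the highest writer, Ythdf3 the highest reader and Alkbh5 the highest eraser. Levels are compared between genes as CPM with TMM scaling, a library-size correction, per kilobase of merged exon, given as mean ± SD over all 4 libraries. Wtap was highest at 147 ± 6.22 CPM per kilobase, followed by Ythdf3 at 87.5 ± 4.27, Alkbh5 at 71.5 ± 5.85 and Ythdf2 at 32.5 ± 2.28 CPM per kilobase. In these first 4 the order was the same in 4 of 4 libraries and the ranges did not overlap. Mettl3 (9.06 ± 2.26), Ythdf1 (8.51 ± 2.04) and Ythdc1 (8.06 ± 0.55) overlapped in range, each above the next in 2 of 4 libraries, so their order does not exceed the spread between libraries. Ythdc2 followed at 5.93 ± 0.60 CPM per kilobase, below Ythdc1 in 4 of 4 libraries. Mettl14, at 1.07 ± 0.19, and Fto, at 0.59 ± 0.13 CPM per kilobase, were lowest, with Mettl14 above Fto in 4 of 4 libraries.

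**Figure D1:**
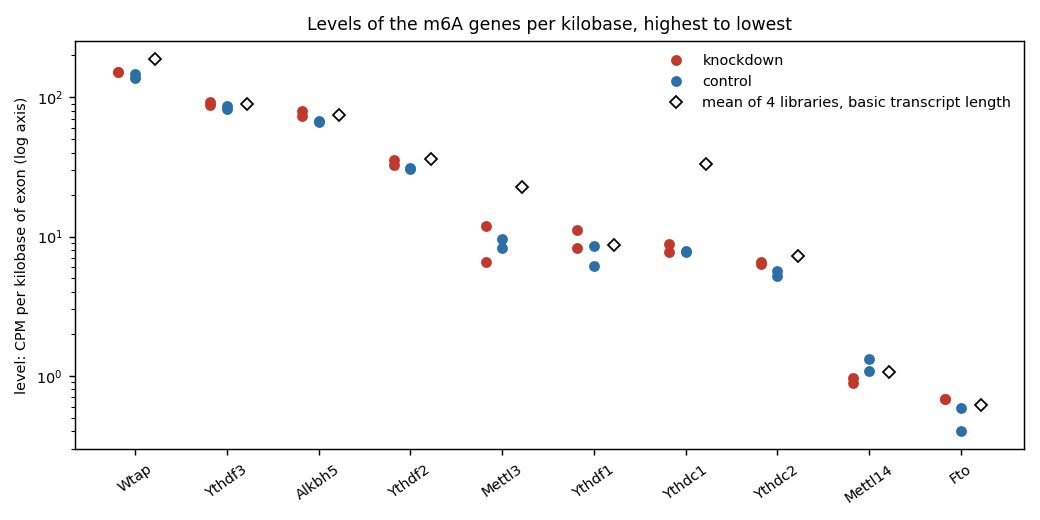
Level of each of the 10 genes per kilobase of exon (log axis), genes ordered from highest to lowest mean; filled points are libraries (knockdown left, control right) and open diamonds are means of 4 libraries computed with the exons of the GENCODE basic transcript set. Wtap, Ythdf3, Alkbh5 and Ythdf2 stand apart at the top and Mettl14 and Fto at the bottom, and the diamonds of Mettl3 and Ythdc1 lie 2.51 and 4.13 times above their merged-exon means.

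The length used decides where Mettl3 and Ythdc1 fall. Their merged exons cover 5076 and 13651 bases, but 2025 and 3305 bases when only the GENCODE basic transcript set is used. With that shorter length Ythdc1 stood at 33.3 and Mettl3 at 22.7 CPM per kilobase, which puts Ythdc1 in the fifth and Mettl3 in the sixth place, and the range of Ythdc1 (32.0 to 36.7) then overlapped that of Ythdf2 (33.8 to 39.5). The other 8 genes moved by at most 1.27 times, and Wtap, Ythdf3, Alkbh5 and Ythdf2 remained the first 4 in the same order of means. Among all 25565 tested genes, the mean level of Wtap lay at percentile 98.7, Ythdf3 at 97.6, Alkbh5 at 97.0 and Ythdf2 at 93.3, while Mettl14 lay at percentile 50.1 and Fto at 39.6.

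The subunits of the writer were thus unequal in message. The ratio of Wtap to Mettl3, in CPM per kilobase, was 23.0 and 12.7 in the knockdown libraries and 16.7 and 15.5 in the control libraries. The ratio of Mettl3 to Mettl14 was 7.37 and 12.3 in the knockdown libraries and 6.20 and 8.88 in the control libraries. For both ratios the groups overlapped, and both depend on the length taken for Mettl3. Among the erasers, the ratio of Alkbh5 to Fto was 107 and 116 in the knockdown libraries and 113 and 168 in the control libraries, again with overlapping groups. Among the cytoplasmic readers, Ythdf3 made up 67.1 and 67.8% of the summed Ythdf level in the knockdown libraries and 68.5 and 69.2% in the control libraries, lower in both knockdown libraries. Ythdf2 made up 24.5 and 26.1% in knockdown and 24.8 and 25.6% in control, a difference of 0.13 percentage points that lay within the spread of either group (2-sided exact permutation test over libraries, p = 1, adjusted p = 1). Ythdf1 made up 8.41 and 6.03% in knockdown and 6.76 and 5.16% in control.

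Whether silencing SPENH0335 changed these genes was asked with edgeR's quasi-likelihood test, fitted to all 25565 tested genes with Benjamini-Hochberg adjustment over all of them, with fold changes as knockdown over control on the log2 scale. No gene of the 10 passed an adjusted p of 0.05, against 0% of all tested genes, and none had an unadjusted p under 0.05, against 3.85% of all tested genes (1.56% higher and 2.29% lower in knockdown). DESeq2 called 0 of the 10, against 0.208% of the genes it adjusted, with 0 at an unadjusted p under 0.05, against 4.01% of its genes. By limma-voom 0 were called, against 0%, and 0 had an unadjusted p under 0.05, against 3.13%. Above 0 lay 9 genes, against 49.7% of all tested genes and 4536 of the 8185 genes of at least 10 CPM, and below it Mettl14. The median log2 fold change was 0.12, beside -0.0025 over all tested genes and 0.03 over genes of at least 10 CPM. Knockdown and control values were separate for 7 of the 10 genes, against 32.7% of all tested genes, with 6 genes higher (background 15.6%) and 1 lower (background 17.1%) in knockdown. Genes share the same 4 libraries and are not replicates of the knockdown. Among the 8 genes averaging 10 CPM or more, the 95% interval lay within 2-fold in either direction for 7, all but Ythdf1, which is near the 87.8% of all tested genes at that level. The intervals of Mettl14 and Fto, under 10 CPM, also went past 2-fold.

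**Figure D2:**
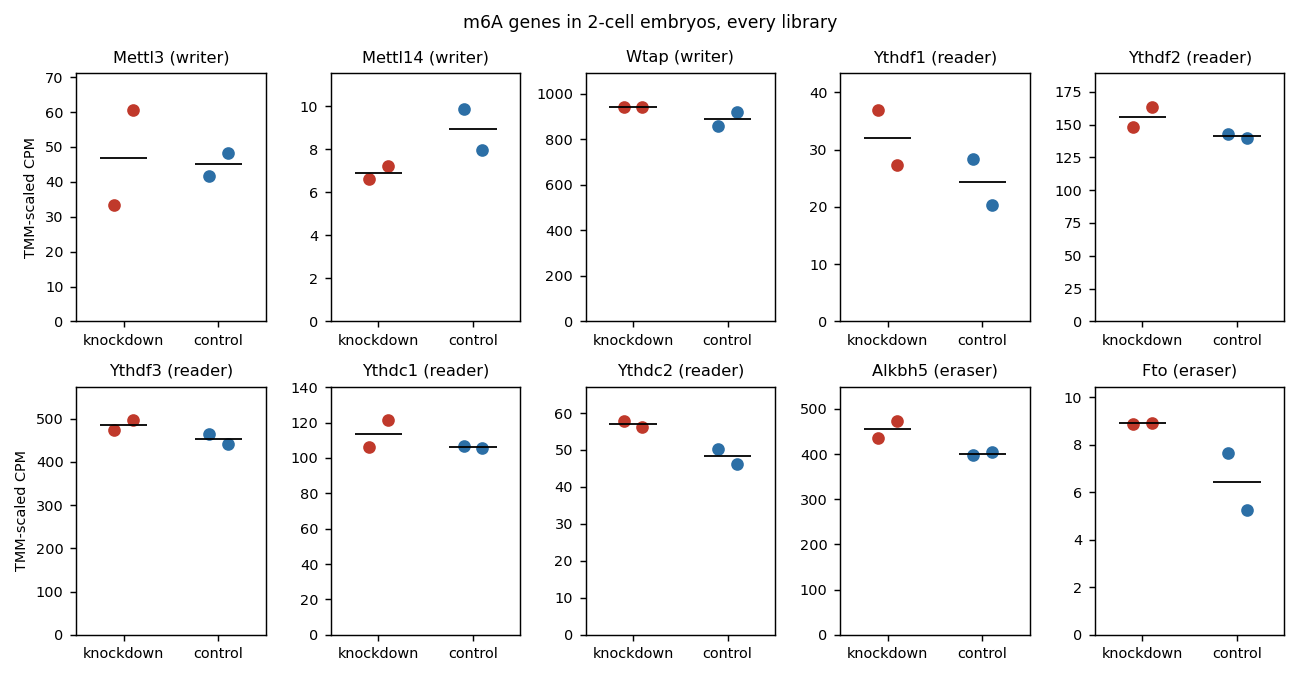
TMM-scaled CPM of the 10 genes in every library, 1 panel per gene with its own axis from 0; points are libraries (replicate 1 left, replicate 2 right) and bars are group means over 2 libraries. Knockdown and control points overlap in range for Mettl3, Ythdf1 and Ythdc1 and are separate for the other 7 genes.

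Of the writers, Mettl3 on chromosome 14 (52294841 to 52305128, GRCm38) had 33.3 and 60.5 CPM in the knockdown libraries, against 41.8 and 48.4 CPM in the control libraries. The control values thus lay between the knockdown values. The log2 fold change was 0.06 (SE 0.30, 95% interval -0.69 to 0.81, adjusted p = 0.9999), and the knockdown replicates differed by 0.86 on the log2 scale, the widest gap within a group among the 10 genes. Tox4, the overlapping gene, had 42.1 and 24.1 CPM in knockdown and 29.985 and 37.1 CPM in control, so the library with the least Mettl3 had the most Tox4. The part of the overlap in this was not tested. Without knockdown replicate 1 the log2 fold change of Mettl3 was 0.43 (adjusted p = 0.332), and without knockdown replicate 2 it was -0.43 (adjusted p = 0.618), and without control replicate 1 it was -0.05, so its direction rests on single libraries.

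Mettl14, on chromosome 3 (123368297 to 123386108), had 6.61 and 7.20 CPM in the knockdown libraries, against 9.86 and 7.97 CPM in the control libraries. It was the only gene of the 10 with a fold change below 0, and both knockdown libraries lay under both control libraries. The log2 fold change was -0.37 (SE 0.28, 95% interval -1.06 to 0.32, adjusted p = 0.9999), and rested on 638 and 676 counts in knockdown and 874 and 640 counts in control. The log2 value was -0.21 without control replicate 1 and -0.51 without control replicate 2. In raw counts the groups overlapped, since knockdown replicate 2 held more Mettl14 reads than control replicate 2 at a larger library size.

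Wtap, on chromosome 17 (12966796 to 12994169), had 944 and 942 CPM in the knockdown libraries, against 861 and 922 CPM in the control libraries. With 74090 or more counts in every library, it was the most precisely measured of the 10, and its log2 fold change of 0.08 (SE 0.08, adjusted p = 0.9999) had a 95% interval of -0.12 to 0.29, a fold of 0.917 to 1.22. The knockdown replicates were nearly equal, and the step between the groups was smaller than the step between the control replicates. The log2 value was 0.03 without control replicate 1, 0.13 without control replicate 2 and 0.04 with library totals in place of TMM.

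Of the cytoplasmic readers, Ythdf1 on chromosome 2 (180904377 to 180920949) had 36.9 and 27.3 CPM in the knockdown libraries, against 28.3 and 20.4 CPM in the control libraries. The groups overlapped, and the log2 fold change of 0.40 (SE 0.25, 95% interval -0.24 to 1.03, adjusted p = 0.9999) was smaller than the gap between replicates of either group. It was 0.17 without knockdown replicate 1, 0.60 without knockdown replicate 2, 0.65 without control replicate 1 and 0.18 without control replicate 2.

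Ythdf2, on chromosome 4 (132184912 to 132212303), had 148 and 163 CPM in the knockdown libraries, against 143 and 140 CPM in the control libraries. Both knockdown libraries lay above both control libraries, by a margin smaller than the distance between the knockdown libraries. Its log2 fold change was 0.14 (SE 0.11, 95% interval -0.14 to 0.42, adjusted p = 0.9999), so a change beyond 1.34-fold upward lies outside the interval. The log2 value was 0.21 without knockdown replicate 1 and 0.07 without knockdown replicate 2.

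Ythdf3, on chromosome 3 (16183212 to 16217037), had 475 and 497 CPM in the knockdown libraries, against 464 and 442 CPM in the control libraries. The groups were separate but close, with a log2 fold change of 0.10 (SE 0.09, 95% interval -0.12 to 0.33, adjusted p = 0.9999). The fold change was 0.07 on the log2 scale without control replicate 2 or without knockdown replicate 2. Ythdf3 was the highest reader in every library.

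Ythdc1, the nuclear reader on chromosome 5 (86804221 to 86836659), had 106 and 121 CPM in the knockdown libraries, against 107 and 106 CPM in the control libraries. Knockdown replicate 1 lay among the control libraries and knockdown replicate 2 above them. The log2 fold change was 0.10 (SE 0.13, 95% interval -0.22 to 0.41, adjusted p = 0.9999), and it was -0.00056 without knockdown replicate 2 and 0.19 without knockdown replicate 1.

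Ythdc2, the helicase reader on chromosome 18 (44827746 to 44889724), had 57.8 and 56.2 CPM in the knockdown libraries, against 50.3 and 46.3 CPM in the control libraries. Here the gap between the groups was wider than that within either group. Its log2 fold change was 0.24 (SE 0.14, 95% interval -0.11 to 0.59, adjusted p = 0.9999) and did not pass the test.

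Of the erasers, Alkbh5 on chromosome 11 (60536381 to 60558512) had 436 and 474 CPM in the knockdown libraries, against 398 and 404 CPM in the control libraries. Both knockdown libraries lay above both controls, and the unadjusted p of 0.104 was the smallest of the 10 genes. A log2 fold change of 0.18 was fitted (SE 0.09, 95% interval -0.05 to 0.42, adjusted p = 0.9999 by edgeR), and leaving out 1 library at a time gave 0.13 to 0.24.

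Fto, on chromosome 8 (91313525 to 91668439), had 8.90 and 8.91 CPM in the knockdown libraries, against 7.65 and 5.25 CPM in the control libraries. It had the highest fold change of the 10 and the widest gap between control replicates. A log2 fold change of 0.47 was fitted (SE 0.31, 95% interval -0.30 to 1.23, adjusted p = 0.9999), from 859 and 837 counts in knockdown and 678 and 422 counts in control. It was 0.76 without control replicate 1 and 0.22 without control replicate 2.

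**Figure D3:**
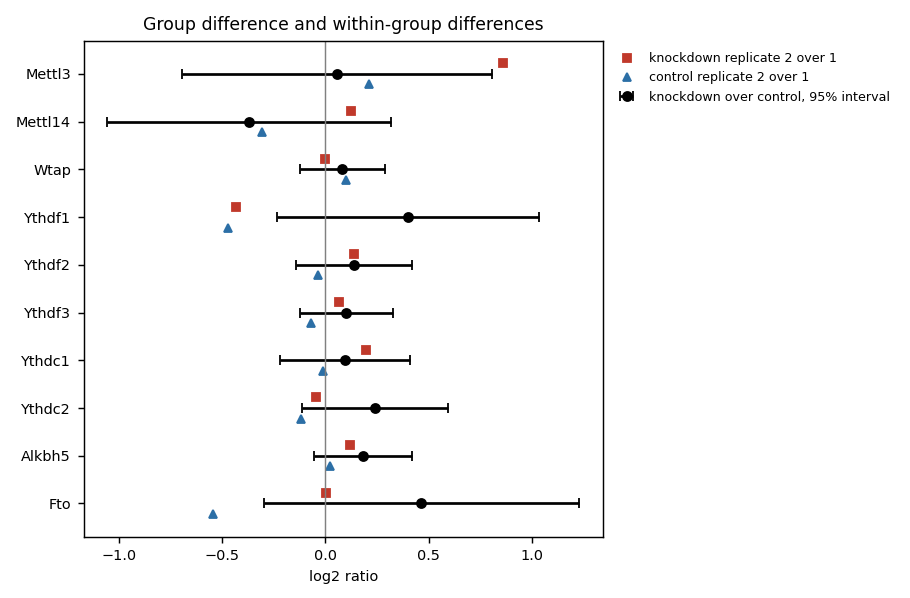
Log2 fold change of knockdown over control with its 95% interval (black circles and bars, edgeR), beside the log2 ratio of replicate 2 over replicate 1 within knockdown (squares) and within control (triangles). All 10 intervals cross 0, and for 5 genes a within-group ratio is larger in size than the group difference.

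For 5 of the 10 genes the difference between the groups was smaller in size than the larger of the within-group differences. Summed by role, in CPM per kilobase, the writers came to 159 and 164 in the knockdown libraries and 147 and 158 in the control libraries, of which Wtap made up nearly all. The readers came to 146 and 152 in knockdown and 140 and 132 in control. The erasers came to 73.6 and 79.9 in knockdown and 67.0 and 68.0 in control, nearly all of it Alkbh5. The ratio of writer to eraser level was 2.16 and 2.05 in the knockdown libraries and 2.20 and 2.33 in the control libraries. Its difference of -0.16 gave p = 0.333 (2-sided exact permutation test over libraries, adjusted p = 0.667 over the 2 quantities tested), which is the smallest p that 2 libraries against 2 allow. In bulk samples, fewer cells carrying a message and less message per cell cannot be told apart.

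The other genes of the pathway were 38 genes in 6 lists. By edgeR none passed an adjusted p of 0.05 and none had an unadjusted p under 0.05, with a median log2 fold change of 0.06, 20 genes above 0 and 18 below, and 11 of 38 (28.9%) with groups that did not overlap, near the 32.7% of all tested genes. DESeq2 and limma-voom also called 0 of the 38, and in each 1 gene, Mat2a, had an unadjusted p under 0.05. Single fold changes moved with the knockdown library left out. That of Mat2a was -0.75 on the log2 scale without knockdown replicate 1, and those of Mat2b are given below. Of the 30 genes averaging 10 CPM or more, 25 had an interval within 2-fold, against 87.8% of all tested genes at that level.

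**Figure D4:**
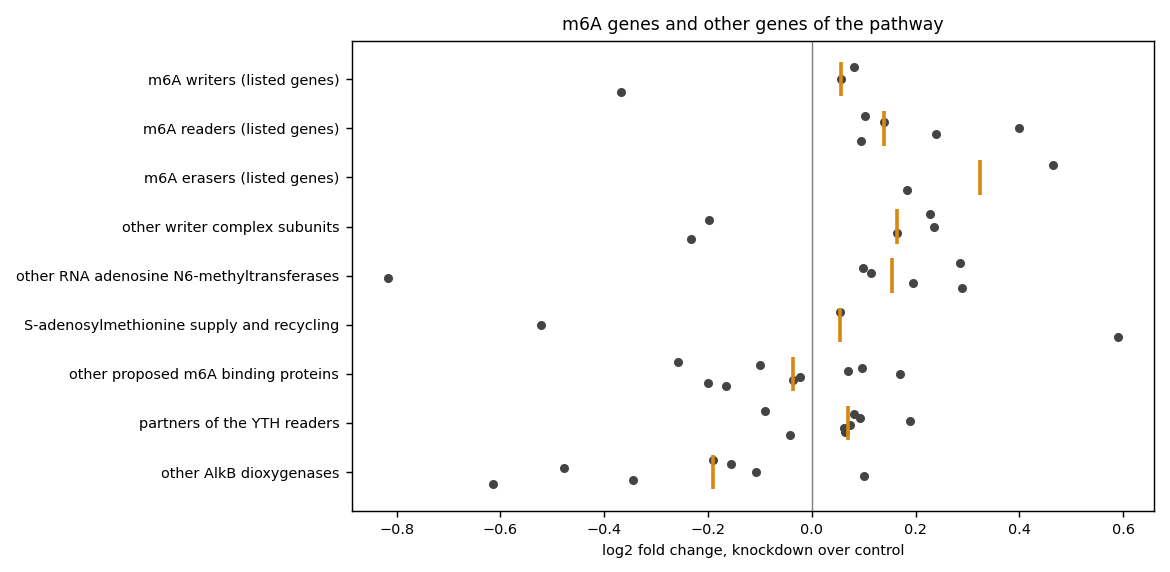
Log2 fold change of knockdown over control for the 10 m6A genes in their 3 roles and for 38 other genes of the pathway in 6 lists; each point is a gene and the orange bar is the median of its list. Medians run from -0.19 (other AlkB dioxygenases) to 0.32 (the 2 erasers), and no point passed the test.

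Of the 5 other writer complex subunits, 3 lay above 0 and 2 below (median log2 fold change 0.16). Virma, a scaffold of the complex, averaged 101 ± 1.28 CPM in knockdown and 116 ± 0.67 CPM in control (SD, 2 libraries each; log2 fold change -0.20, edgeR adjusted p = 0.9999). Cbll1, which encodes the E3 ligase HAKAI and had the highest level of this list per kilobase of merged exon, averaged 66.7 ± 14.5 CPM in knockdown and 78.4 ± 3.68 CPM in control. Over the 4 libraries the 5 subunits averaged 4.65 (Rbm15b) to 18.1 CPM per kilobase (Cbll1), all above the 1.07 CPM per kilobase of Mettl14. With basic transcript lengths Rbm15, at 18.7 CPM per kilobase, lay above Cbll1, at 18.1.

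Among the 6 other RNA adenosine N6-methyltransferase genes, 5 lay above 0 (median 0.15). Mettl5, the enzyme that marks an adenosine of 18S ribosomal RNA, was the exception, with 2.53 and 4.03 CPM in knockdown and 5.66 and 5.88 CPM in control. Its log2 fold change was -0.82 (SE 0.38, edgeR unadjusted p = 0.0767, adjusted p = 0.9999). Trmt112, which encodes the partner protein of METTL5, averaged 241 ± 42.1 CPM in knockdown and 225 ± 5.24 CPM in control, at 189 CPM per kilobase the highest of this list.

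Of the 3 genes that supply and recycle S-adenosylmethionine, the methyl donor, Mat2a had the smallest unadjusted p of all 38 genes (0.0514). Mat2a, the catalytic subunit of methionine adenosyltransferase, had 28.0 and 20.9 CPM in knockdown and 36.7 and 33.5 CPM in control, with both knockdown libraries lower (log2 fold change -0.52, SE 0.21, edgeR adjusted p = 0.9999). Mat2b, its regulatory subunit, averaged 1646 ± 341 CPM in knockdown and 1586 ± 21.0 CPM in control (log2 fold change 0.05, but 0.25 without knockdown replicate 1 and -0.17 without knockdown replicate 2), at 323 CPM per kilobase far above the 6.64 CPM per kilobase of Mat2a.

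Among 9 other proteins proposed to bind m6A, 3 lay above 0 and 6 below (median -0.04). Hnrnpc, a nuclear RNA-binding protein and the highest of the list, averaged 497 ± 28.3 CPM in knockdown and 505 ± 29.7 CPM in control. Elavl1, an RNA-stabilising protein and the gene of the list with the smallest p (0.281, edgeR unadjusted), averaged 54.3 ± 3.70 CPM in knockdown and 60.9 ± 1.13 CPM in control. Of 8 partners of the YTH readers, 6 lay above 0 (median 0.07). Srsf10, a splicing factor that YTHDC1 binds, led this list in both level and p, with 353 and 371 CPM in knockdown and 316 and 318 CPM in control (log2 fold change 0.19, edgeR unadjusted p = 0.0907, adjusted p = 0.9999). Of 7 other AlkB dioxygenases, relatives of ALKBH5 and FTO with other substrates, 6 lay below 0 (median -0.19). Alkbh1 averaged 10.8 ± 1.33 CPM in knockdown and 16.5 ± 5.84 CPM in control, and Alkbh2, a DNA repair enzyme, 14.9 ± 0.91 CPM in knockdown and 19.0 ± 1.29 CPM in control. None of these differences passed the test.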

How the data were processed

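The deposited table holds raw counts per gene, 1 column per library, not normalized by the authors. Per the submitters' processing notes, Picard 2.18.2, HISAT2 2.1.0, Trim Galore 0.6.5 and CASAVA 1.8 were used, in roles not named, with build mm10. No source used here gives the counting tool, annotation, strand setting or duplicate handling. The labels name no molecular identifiers, so duplicate molecules cannot be counted out.

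Symbols, positions and exon lengths came from GENCODE M21 (GRCm38), matched by Ensembl ID without version (53620 of 53715 rows). Counts were tested with edgeR 4.0.16 (R 4.3.3) by the quasi-likelihood F-test on 25565 genes kept by filterByExpr (minimum count 10), with TMM scaling, group as the only term, and Benjamini-Hochberg adjustment. The standard error is the log2 fold change over the square root of F, with 95% intervals from the t distribution. The fit was tested on simulated data. Alternatives used DESeq2 1.42.0, limma-voom 3.58.1, other scalings and filters, a replicate block, and leaving out each library. Levels are CPM per kilobase of merged exon. Windows of 50 bases were searched in all GENCODE transcripts on both strands, and coding sequences were aligned with MAFFT 7.526. No pair of libraries was alike enough to be 1 library: chi-square over degrees of freedom was at least 28.8.

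The members and lists were chosen with earlier results of these data known. Named genes were the 10 members and, in each other list, any gene with an unadjusted p under 0.05, otherwise the gene with the smallest p and that with the highest level, with the highest gene of each marker list. For the 2 members with the highest level, the 3 genes of at least 10 CPM nearest in profile were also named. Outside this rule, Tox4, Gm43055 and the pseudogenes were named for shared sequence. Rbm15, Rbm15b, Has2, Foxl2, Fshr, Pgk2, Tnp2, Lyz2, Ovgp1, Krt7 and Hbb-bs were named after their values were seen. The oocyte and 2-cell lists were named in full.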

Additional observations from a re-analysis of the deposited data

How the results depend on the processing

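None of the 10 genes and none of the 38 other pathway genes was called under any alternative run. Over all tested genes the count of calls was 0, but 53 with DESeq2 and, leaving out each library in turn, from 0 to 3 (3 without knockdown replicate 1 and 2 without knockdown replicate 2, with 3659 and 2255 genes at an unadjusted p under 0.05 against 984 with all libraries). With 1 library in a group, its spread is assumed to be like that of the other group. The log2 fold change of Mettl3 turned to -0.0028 with limma-voom, -0.0021 with the replicate block and -0.0018 with the crossed replicate block, and ran from -0.43 to 0.43 leaving out each library. That of Ythdc1 ran from -0.00056 to 0.19. The other 8 kept their sign in every alternative run on them; Mettl14 and Fto fell under the 10 CPM filter. The difference in the Ythdf2 share ran from -0.67 to 0.93 percentage points leaving out each library, and the writer to eraser difference from -0.23 to -0.097. The median of the 10 was 0.12 with all libraries, 0.20 without knockdown replicate 1 and 0.08 without knockdown replicate 2, and with library totals in place of TMM it was 0.08, while that of all genes was -0.04. Replicate numbers are not said to pair the libraries, and same-numbered deviations correlated at -0.207. The replicate block called 0 genes, with 479 at an unadjusted p under 0.05, and the crossed pairing, added after seeing the data, called 0 with 747. The basic transcript lengths were also added after seeing the data. Mettl14 and Fto had the fewest counts of the 10, at 422 to 874 a library, with standard errors of 0.28 and 0.31. Mettl3, at 3216 to 5681 counts a library, had a standard error of 0.30. The part of depth in these errors was not tested.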

Other observations

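Genes whose pattern over the 4 libraries lay nearest to the highest 2 members were listed as a description, with log2 CPM centred on each gene's mean and the Euclidean distance as the measure, over 8184 genes of at least 10 CPM. Nearest to Wtap were Rbm47, an RNA-binding protein gene (distance 0.0145), Ldb2, a LIM domain binding protein gene (0.0213), and Ptges3, a prostaglandin E synthase and HSP90 co-chaperone gene (0.0215). Ptges3 stood at 854 and 844 CPM in knockdown and 785 and 842 CPM in control. Nearest to Ythdf3 were Ceacam20, a cell adhesion molecule gene (0.0229), Ppp4r2, a regulatory subunit gene of protein phosphatase 4 (0.0238), and Otud4, a deubiquitinase gene (0.0249). Ppp4r2 stood at 515 and 531 CPM in knockdown and 504 and 472 CPM in control. Within 0.1, a wider distance than those listed, lay 359 of the 8184 genes for Wtap and 397 for Ythdf3. The median distance was 0.324 to Wtap and 0.307 to Ythdf3. How common distances as small as those listed are was not tested, and with 4 libraries nearness is a description only.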
